A study of Homo sapiens with 8 samples.

Results

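The genes described here are 10 genes of the epithelial-mesenchymal transition (EMT), out of 20007 protein-coding genes in the annotation: CDH1, EPCAM, CDH2, VIM, VCAN, ZEB1, ZEB2, SNAI1, SNAI2 and TWIST1. They were listed by name, and every H3K27ac peak was taken, library by library, that lay in the gene or in the 50 kb before and after it, together termed the window. The members were chosen from a reading of the same peak calls and coverage that are described here, so their values are given as a description, with no test. Of the 10 windows, 9 contained a peak in at least 1 library.

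Acetylation of histone H3 at lysine 27 (H3K27ac), a mark of active promoters and enhancers, was profiled by ChIP-seq in pancreatic progenitors (PPs). These were differentiated from the human embryonic stem cell line MEL1, which the study's methods name as the INS GFP/W line, an insulin reporter. All cells were kept in EF6, a DMEM-based medium with the B27 supplement, EGF at 50 ng/ml, bFGF at 10 ng/ml and the TGFβ inhibitor 616452 at 10 μM, so the DMSO controls also received this inhibitor. The 2 DMSO libraries came from cells given the solvent, and the 2 I-BET151 libraries from cells given 1 μM I-BET151, a BET bromodomain inhibitor, for 7 days. The other 4 of the 8 samples were input libraries, which were not analysed here as separate samples. Nothing in the labels says that same-group libraries came from separate cultures, so the spread between them may be technical. The cells were profiled in bulk, and fewer cells of a type cannot be told apart from less acetylation per cell.

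In EMT, epithelial cells loosen their junctions and take on a migratory, mesenchymal form. CDH1 (E-cadherin) and EPCAM hold epithelial cells together, whereas CDH2 (N-cadherin), VIM (the intermediate filament vimentin) and VCAN (the matrix proteoglycan versican) are typical of mesenchymal cells. The transcription factors ZEB1, ZEB2, SNAI1 and SNAI2 repress CDH1, and TWIST1 is a further EMT inducer. TGFβ signaling is a classical trigger of the process, and pancreatic progenitors are epithelial cells.

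At the CDH1 start H3K27ac peaks were called in the DMSO libraries only, and at the VCAN start most peaks were called in the I-BET151 libraries only. Peaks from any library that overlapped by 1 bp or more were joined into 1 region. A region is termed gained when both I-BET151 lists and no DMSO list held a peak in it, and lost in the opposite case. The sequences of a lost CDH1 region and of the VCAN regions are shown because CDH1 and VCAN stood at opposite ends of the members in coverage. All are given 5′ to 3′ in hg38 coordinates.
CDH1, second lost region around its summit, chr16:68738111-68738311, plus strand: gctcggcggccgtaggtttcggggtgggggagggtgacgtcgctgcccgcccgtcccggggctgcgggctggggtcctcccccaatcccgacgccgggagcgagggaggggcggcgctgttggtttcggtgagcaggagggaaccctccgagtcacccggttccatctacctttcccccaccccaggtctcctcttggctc
VCAN, gained region at the start, part before the gene start, chr5:83471371-83471617, plus strand: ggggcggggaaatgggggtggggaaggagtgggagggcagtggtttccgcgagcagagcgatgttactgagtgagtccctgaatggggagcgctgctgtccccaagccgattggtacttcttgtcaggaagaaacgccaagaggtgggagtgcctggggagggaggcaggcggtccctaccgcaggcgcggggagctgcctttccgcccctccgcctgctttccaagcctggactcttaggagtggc
VCAN, region in all 4 lists around its summit, chr5:83473038-83473238, plus strand: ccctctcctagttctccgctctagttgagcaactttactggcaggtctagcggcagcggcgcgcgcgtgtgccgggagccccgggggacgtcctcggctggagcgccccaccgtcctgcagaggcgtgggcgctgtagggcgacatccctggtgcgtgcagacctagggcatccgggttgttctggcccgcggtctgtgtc
VCAN, second gained region around its summit, chr5:83473913-83474113, plus strand: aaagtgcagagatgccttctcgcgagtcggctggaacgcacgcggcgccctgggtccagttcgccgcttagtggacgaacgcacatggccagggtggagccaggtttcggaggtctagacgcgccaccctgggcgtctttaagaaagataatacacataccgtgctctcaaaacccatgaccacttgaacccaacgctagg
VCAN, last gained region around its summit, chr5:83474530-83474730, plus strand: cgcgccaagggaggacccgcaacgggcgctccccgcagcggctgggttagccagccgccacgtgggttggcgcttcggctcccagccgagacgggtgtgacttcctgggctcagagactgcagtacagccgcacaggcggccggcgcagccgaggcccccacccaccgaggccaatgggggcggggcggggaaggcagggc

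The 4 lists differed in size, with 13606 and 14248 peaks in DMSO and 12887 and 12312 in I-BET151, from 7.76 to 9.84 M ChIP reads per library. These depths were worked out from the peak values, as were the reads at each summit, which are given relative to each M (mega) of ChIP reads (rpm). Where a library had several peaks in a region, the summit strongest by p-value was taken, so summits compared between libraries may lie apart. Peaks lay within 3 kb of a start for 9 of 10 PP markers, PDX1, NKX6-1 and SOX9 among them, in all 4 libraries, and PTF1A had none in any. Of the other marker lists, endothelial cells had 1 of 7 (PECAM1, DMSO libraries only), mesenchymal cells 1 of 10 (PDGFRB), pluripotent cells 2 of 7 (SALL4, LIN28B) and neural cells 1 of 5 (TUBB3). Hepatic and intestinal cells had 3 of 6 in 3 libraries and 2 of 6 in I-BET151 replicate 2, where VIL1 was not called, and endocrine cells 0 of 5. The part that PECAM1 and VIL1, whose calls differed between libraries, had in the results below was not tested.

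Peak coverage around the members differed in both directions. It was higher in both I-BET151 libraries than in both DMSO libraries at 4 members (CDH2, VIM, VCAN and ZEB1) and lower at 2 (CDH1 and SNAI1). Among the 15184 protein-coding genes with a peak in the window, 12.5% were higher and 44.4% lower by the same rule. Nothing is read from that contrast, since the members were chosen on these calls. The libraries of the 2 groups overlapped at EPCAM, ZEB2 and SNAI2, and TWIST1 had 0 peaks. The median difference over the 10 members was 0.153 kb, or 0.183 kb over the 9 with a peak, against −0.094 kb over all genes with a peak. This median rested on DMSO replicate 1, as it was −0.029 kb without that library and 0.291 kb without DMSO replicate 2. With 2 libraries per group an exact two-sided permutation test could not go below p = 0.33.

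**Figure D1:**
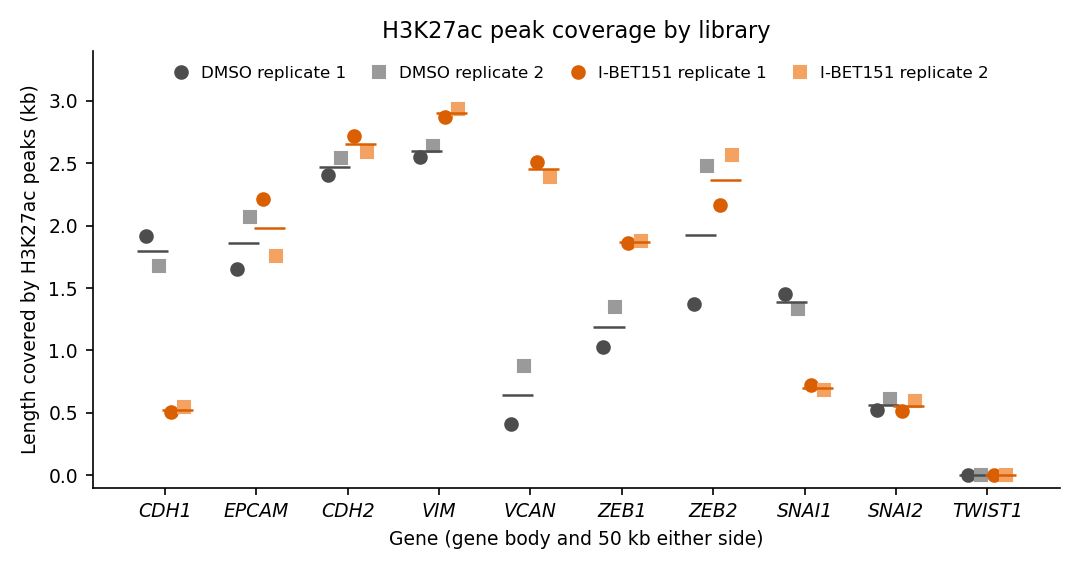
Length covered by H3K27ac peaks (kb) in the window of each member, for each of the 4 libraries (points) with the mean of each group (lines). CDH1 and SNAI1 are lower and VCAN, ZEB1, VIM and CDH2 higher in both I-BET151 libraries, while the groups overlap at EPCAM, ZEB2 and SNAI2 and no peak was called at TWIST1.

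**Figure D2:**
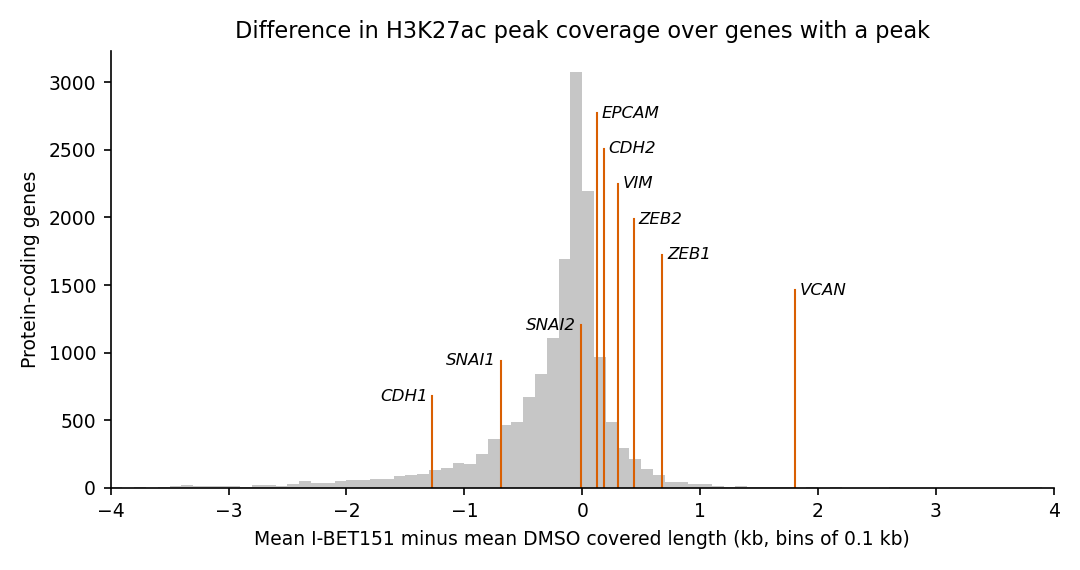
Histogram of the difference in covered length (mean I-BET151 minus mean DMSO, kb) over the 15184 protein-coding genes with a peak in the window, with the 9 members that had a peak marked by lines whose height has no meaning. VCAN lies far to the right and CDH1 and SNAI1 to the left, and 60 genes fall outside the plotted range.

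The windows of the members held 24 merged regions. All 4 libraries had a call in 14 of them, 3 were gained, 4 were lost and 3 had other combinations of calls. The background was 2.81% gained and 8.6% lost over all 15752 regions, against 12.5% (3 of 24) and 16.7% (4 of 24) here. All 3 gained regions lay at VCAN, while 3 of the lost regions lay in the CDH1 window and 1 at SNAI1, so the calls of 3 genes make up these shares. Nothing is read from the shares, since the members were chosen on these calls. With peaks within 500 bp merged, the windows held 0 gained and 3 lost regions, and the background was not recomputed that way. Within 3 kb of an own start there were 15 regions: 8 with a call in every library, 3 gained, 3 lost and 1 called in 3 libraries. A region without a call may still carry acetylation below the threshold of the peak caller.

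**Figure D3:**
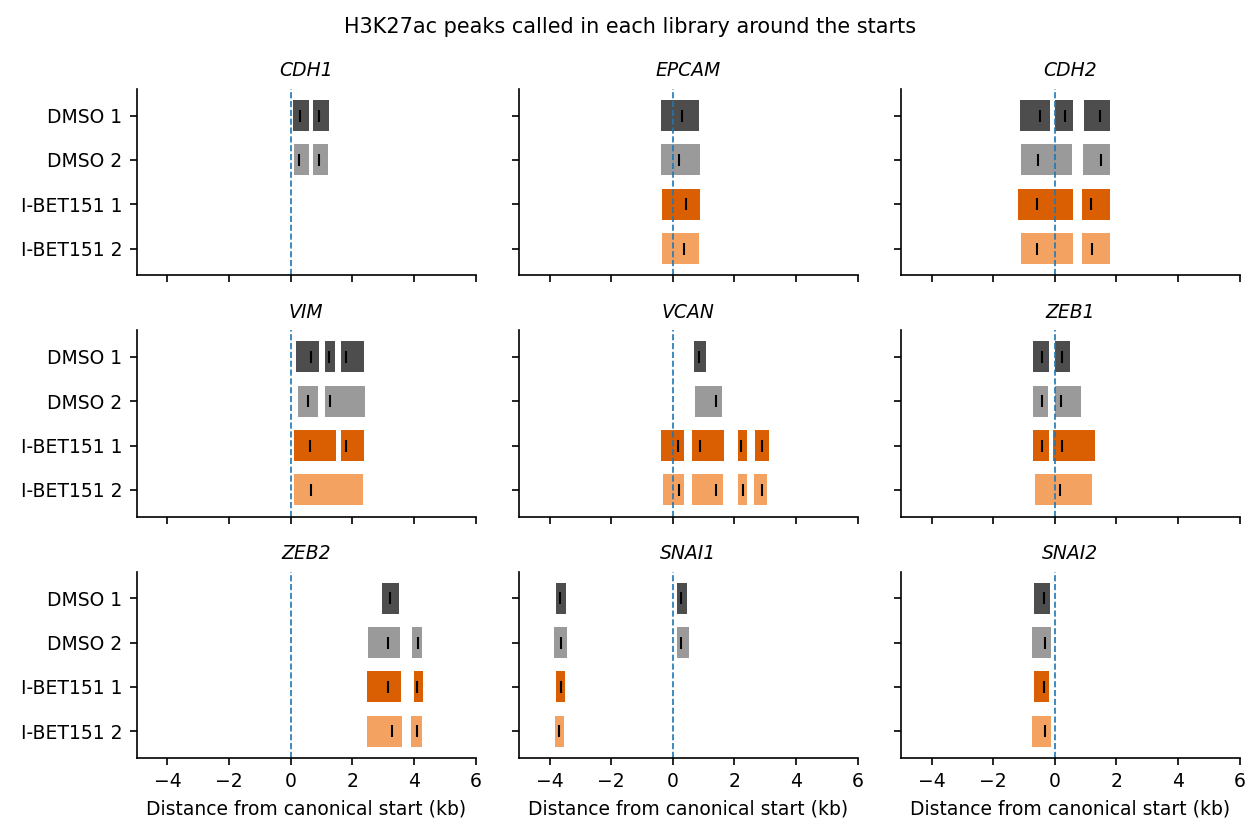
H3K27ac peaks (bars) and their summits (black ticks) called in each library from 5 kb before to 6 kb after the canonical start (dashed line) of the 9 members with peaks, in the direction of transcription. The CDH1 panel is empty in both I-BET151 libraries, the VCAN peaks extend over the start in I-BET151 only, and the ZEB1 and VIM peaks are wider in I-BET151.

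CDH1 (ENSG00000039068.20, chr16:68737292-68835537) encodes E-cadherin, the calcium-dependent adhesion protein of epithelial junctions. Peaks in its window covered 1.92 and 1.68 kb in DMSO replicates 1 and 2, and 0.51 and 0.544 kb in I-BET151 replicates 1 and 2. The groups did not overlap, with means of 1.80 ± 0.17 kb and 0.527 ± 0.024 kb (SD, n = 2 each) and a difference of −1.27 kb. This coverage difference stood at percentile 6.57 of all genes with a peak.

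Both regions at the CDH1 start lay in an intron of the gene and were lost. The first, at chr16:68737365-68737879, had its summit 306 bp after the start, with 26.5 and 22.9 rpm in the DMSO libraries. The second, at chr16:68738026-68738522, had its summit 919 bp after the start, with 19.3 and 20.0 rpm. In the lists of their own libraries these summits were of medium height, at percentiles 36.7 to 55.2. At the input level of the libraries with a call, a peak in I-BET151 replicates 1 and 2 would have needed about 13.3 and 13.9 rpm at the first region and 11.2 and 11.7 rpm at the second. The fold enrichment over local input that the authors' peak caller gave was modest, at 3.55 and 3.20 in the first region and 4.27 and 2.81 in the second. The local input there was 42.4 to 75.5 times its genome-wide level. Such a level was not particular to CDH1, as it was 69.3 and 60.4 times in the DMSO libraries at the EPCAM start. In the VCAN region called in all 4 libraries it was lower, at 18.6 and 18.9 times in DMSO.

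A further lost region of the CDH1 window, at chr16:68707235-68707615, lay in an intron of CDH3, the neighboring P-cadherin gene, 29830 bp before the CDH1 start. It reached 8.29 and 7.62 rpm in DMSO. The only region of the window called in all 4 libraries belonged to another gene, as its summit was 211 bp from the TANGO6 start. It had 36.2 and 30.1 rpm in DMSO and 36.7 and 39.6 rpm in I-BET151, the strongest of the window. Counting only peaks whose nearest start was that of CDH1, the difference was −0.977 kb, and no such peak remained in either I-BET151 library.

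EPCAM (ENSG00000119888.11, chr2:47345158-47387601) encodes an epithelial cell adhesion molecule. In contrast to CDH1, its start carried a strong region in all 4 libraries (chr2:47368925-47370196), whose summit lay in the coding part of an exon. It had 44.1 and 38.6 rpm in DMSO and 40.9 and 42.9 rpm in I-BET151. By reads the groups overlapped, with a log2 ratio of 0.02. By the authors' fold over local input they did not, with 6.08 and 6.63 in DMSO and 8.65 and 8.74 in I-BET151. The log2 ratio of the fold was 0.45. The whole window had coverage of 1.66 and 2.07 kb with DMSO against 2.21 and 1.76 kb with I-BET151, again with overlap. The spread included a weak intergenic region at chr2:47310881-47311294, called in DMSO replicate 2 and I-BET151 replicate 1 at 2.64 and 5.29 rpm.

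The other genes of the epithelial program, 31 genes with junction proteins, keratins and their regulators, mostly had less coverage after I-BET151 treatment. Of the 30 with a peak in the window, 1 was higher and 23 lower, against 12.5% higher and 44.4% lower among all genes with a peak. The median difference was −0.821 kb, against −0.094 kb over all genes. Nothing is read from these contrasts, since the list was chosen with earlier results of these data known. They were not recomputed with peak lists cut to equal length. Windows of neighboring genes overlap, so the same peak can count for several genes, and the listed genes are not independent. CDH3 of this list, for example, lies in the CDH1 window. A window can also hold peaks at the starts of genes outside the list. OCLN (occludin, a tight junction protein) was the gene with more coverage, by 0.073 kb. CLDN4, a claudin of tight junctions, had coverage of 2.52 and 3.25 kb with DMSO against 0.756 and 0.255 kb with I-BET151. Of the 7 regions in the CLDN4 window 2 were lost, and 0 of the lost regions lay at its own start. At CLDN7, another claudin, the values were 8.56 and 8.77 kb with DMSO against 6.38 and 6.21 kb with I-BET151. Of the 11 regions in the CLDN7 window, 2 lay at its own start, and both were lost.

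VCAN (ENSG00000038427.16, chr5:83471618-83582303), a large proteoglycan of the extracellular matrix, differed most toward higher coverage among the members. Its window had coverage of 0.414 and 0.877 kb with DMSO against 2.51 and 2.39 kb with I-BET151. The groups were well apart, with means of 0.646 ± 0.327 kb and 2.45 ± 0.08 kb (SD, n = 2 each) and a difference of 1.81 kb. Only 36 of the 15184 genes with a peak had a larger positive difference.

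The VCAN peaks formed 4 regions, with summits within 3 kb downstream of the start. The region at chr5:83472362-83473399, in an intron, was the one called in all 4 libraries. Its summits had 13.9 and 14.6 rpm in DMSO and 42.0 and 39.7 rpm in I-BET151, a log2 ratio of 1.52. They lay at 0.848 and 1.394 kb from the canonical start in DMSO and at 0.894 and 1.394 kb in I-BET151, so each group mean mixes positions. By the authors' fold the log2 ratio was 1.16, with 6.47 and 7.23 in DMSO and 12.9 and 17.8 in I-BET151. Within the lists, these summits stood at percentiles 22.2 and 28.2 in DMSO and 88.9 and 81.4 in I-BET151.

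The gained region over the VCAN start itself, chr5:83471371-83472100, had its summit in an untranslated exon and 21.7 and 19.9 rpm in the I-BET151 libraries. At the input level of those libraries a DMSO call would have needed about 4.02 and 4.17 rpm. The second gained region, chr5:83473852-83474148, had 9.93 and 10.7 rpm, and the last, chr5:83474394-83474865, had 12.6 and 15.4 rpm. This last region was the weakest in significance, with a −log10 q of 4.16 in I-BET151 replicate 1, and was no longer gained at a −log10 q of at least 5. Merging peaks within 500 bp joined all 3 gained regions to the one called in all 4 libraries, which left 0 gained regions but did not alter the covered length.

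**Figure D4:**
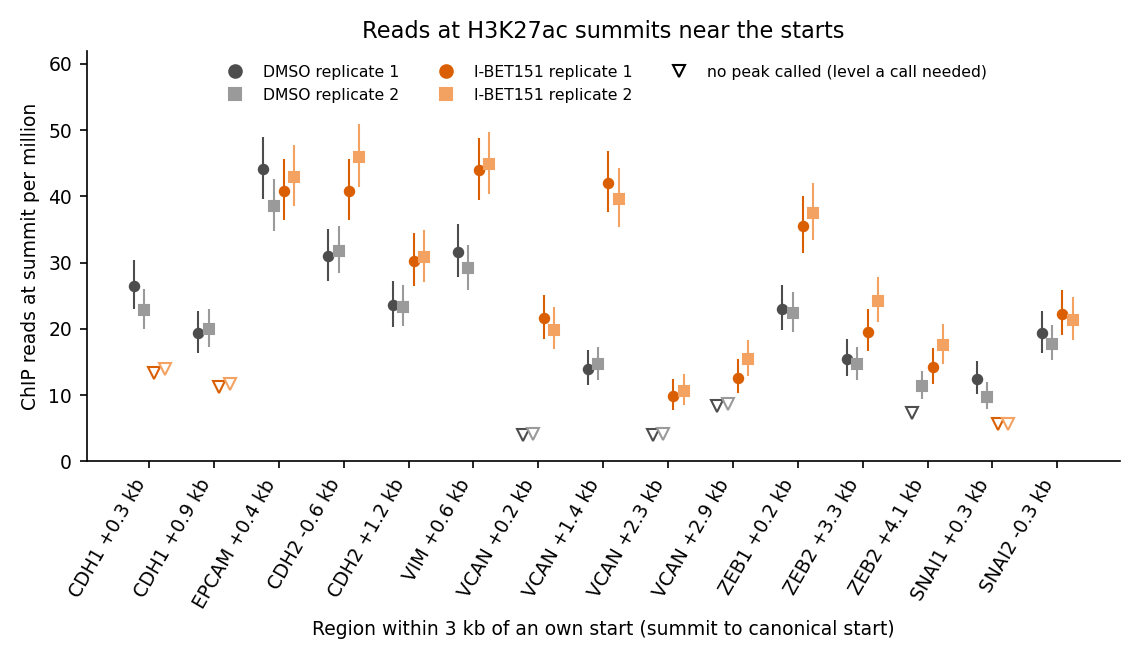
ChIP reads at the strongest summit of each library (rpm) in the 15 regions within 3 kb of a member's own start, with exact 95% Poisson intervals that cover counting error only. Open triangles stand for libraries without a call and mark the level that a call would have needed at the input level of the other libraries. The I-BET151 points lie above the DMSO points at CDH2, VIM, VCAN +1.4 kb, ZEB1, ZEB2 +3.3 kb and SNAI2, and among them at EPCAM.

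VIM (ENSG00000026025.16, chr10:17228241-17237593) had a broad region just downstream of its start (chr10:17228334-17230663). Its summits had 31.7 and 29.2 rpm in DMSO and 44.0 and 44.9 rpm in I-BET151, a log2 ratio of 0.55, with no overlap between the groups. Peaks of the VIM window covered 2.55 and 2.64 kb with DMSO against 2.87 and 2.93 kb with I-BET151. The number of separate peaks in the window was 4 and 3 in DMSO and 3 and 2 in I-BET151, and peaks that were apart in DMSO ran together in I-BET151. The start of TRDMT1, a tRNA methyltransferase gene 26595 bp away, lay in the same window and had 33.2 and 32.7 rpm in DMSO and 38.4 and 40.3 rpm in I-BET151.

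CDH2 (ENSG00000170558.10, chr18:27932879-28177946) carried a pair of regions, both near its start and both called in all 4 libraries. The upstream region (chr18:28176528-28178321) had 31.0 and 31.8 rpm in DMSO and 40.9 and 46.0 rpm in I-BET151. The downstream region (chr18:28175326-28176249) had 23.6 and 23.4 rpm in DMSO and 30.3 and 30.9 rpm in I-BET151. The groups were apart in both, with log2 ratios of 0.47 and 0.38. At the strongest summits of the upstream region, the authors' fold over local input was 9.53 and 7.38 in DMSO and 8.34 and 5.16 in I-BET151. The log2 ratio was −0.33, and the local input was 9 and 11.6 reads in DMSO and 14 and 23 reads in I-BET151. These summits lay apart: in DMSO replicate 1 at 0.313 kb from the canonical start, in DMSO replicate 2 at −0.539 kb, in I-BET151 at −0.568 and −0.574 kb. The separate peak of DMSO replicate 1 upstream of the start had a fold of 4.24. Both log2 ratios of this region therefore mix positions. Coverage of the CDH2 window was 2.40 and 2.54 kb with DMSO against 2.72 and 2.59 kb with I-BET151, and the nearest groups were thus only 0.05 kb apart in replicate 2 of each.

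Other mesenchymal genes differed in both directions. Of 30 listed genes for matrix, contractile and surface proteins, 19 had a peak in the window, of which 3 were higher and 10 lower. These shares are near the 12.5% higher and 44.4% lower among all genes with a peak, so the counts are no result about the list. Its median difference was −0.394 kb, against −0.094 kb over all genes. Nothing is read from this either, as the list was chosen with earlier results of these data known. FBN1 (the microfibril protein fibrillin 1) had 0 kb in both DMSO libraries and 0.296 and 0.309 kb in I-BET151, in a gained region at its own start. FN1 (fibronectin) had coverage of 1.19 and 1.16 kb with DMSO against 1.34 and 1.19 kb with I-BET151. COL1A1, a collagen gene, had 1.85 and 1.94 kb with DMSO against 0.463 and 0.41 kb with I-BET151, but 0 of its regions lay at its own start. CDH11, a mesenchymal cadherin, had 2.84 and 2.26 kb with DMSO against 1.99 and 1.16 kb with I-BET151.

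Among the transcription factors, ZEB1 (ENSG00000148516.23, chr10:31318495-31529814), a zinc finger repressor of epithelial genes, had the largest difference toward higher coverage, while that of SNAI1 was of similar size toward lower coverage. A single merged region covered the ZEB1 start (chr10:31318493-31320504), with 23.0 and 22.5 rpm in DMSO and 35.6 and 37.6 rpm in I-BET151. The groups did not overlap, and the log2 ratio was 0.69. This ratio mixes positions. The DMSO summits lay at −0.425 and −0.429 kb from the canonical start, those of I-BET151 at 0.222 and 0.177 kb. Near the latter position the authors' fold was 2.94 and 4.36 for DMSO against 7.79 and 7.78 for I-BET151. At the upstream summit it was 5.91 and 4.13 for DMSO and 5.71 for I-BET151 replicate 1, so these overlapped. I-BET151 replicate 2 had 1 peak over both positions. The window had coverage of 1.03 and 1.35 kb with DMSO against 1.86 and 1.88 kb with I-BET151, a difference of 0.679 kb at percentile 98.3 of all genes with a peak.

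ZEB2 (ENSG00000169554.23, chr2:144364364-144521057), the paralog of ZEB1, had its regions at alternative starts downstream of the canonical one. The larger (chr2:144516505-144517649, intron) had 15.5 and 14.6 rpm in DMSO and 19.6 and 24.3 rpm in I-BET151, a log2 ratio of 0.54. The smaller (chr2:144515815-144516206) was not called in DMSO replicate 1 and had 11.4 rpm in DMSO replicate 2, 14.2 rpm in I-BET151 replicate 1 and 17.5 rpm in I-BET151 replicate 2. Coverage of the ZEB2 window overlapped between the groups, at 1.38 and 2.47 kb with DMSO against 2.16 and 2.56 kb with I-BET151. DMSO replicate 1 set the size of the difference, which was 0.437 kb with it and −0.113 kb without it. The strongest region of this window, at the start of GTDC1, overlapped between the groups, with 34.7 and 29.1 rpm in DMSO and 30.4 and 33.7 rpm in I-BET151.

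SNAI1 (ENSG00000124216.4, chr20:49982980-49988886) encodes Snail, a zinc finger repressor of CDH1. The region in its intron, 257 bp after the start (chr20:49983106-49983510), was lost, with 12.4 and 9.76 rpm in DMSO. An I-BET151 call would have needed about 5.67 and 5.72 rpm. An intergenic region 3661 bp before the start (chr20:49979114-49979532) was called in all 4 libraries, with 14.7 and 15.4 rpm in DMSO and 12.4 and 13.1 rpm in I-BET151. It was lower in both I-BET151 libraries, with a log2 ratio of −0.24.

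Coverage of the SNAI1 window was 1.45 and 1.33 kb with DMSO against 0.724 and 0.681 kb with I-BET151, with no overlap and a difference of −0.69 kb. The strongest region there belonged to RNF114, a ubiquitin ligase gene whose start lay 245 bp from the summit, and was also lower, with 34.4 and 30.3 rpm in DMSO and 24.1 and 27.2 rpm in I-BET151. A weak region at chr20:50030100-50030387 was called in DMSO replicate 1 only, at 4.77 rpm.

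SNAI2 (ENSG00000019549.13, chr8:48917598-48921740), which encodes Slug, had 1 region, at its start, in all 4 libraries (chr8:48921559-48922171). Its summits had 19.3 and 17.8 rpm in DMSO and 22.3 and 21.4 rpm in I-BET151, apart by a log2 ratio of 0.24. By the authors' fold the groups overlapped, with 3.32 and 7.85 in DMSO and 5.73 and 7.26 in I-BET151. Coverage overlapped, at 0.521 and 0.613 kb with DMSO against 0.512 and 0.598 kb with I-BET151. TWIST1 (ENSG00000122691.13, chr7:19020991-19117636), a basic helix-loop-helix factor, had 0 peaks in any library although its window also holds the start of FERD3L and the end of HDAC9, and the nearest peak outside lay 1030 kb away. At the other members the nearest peak outside the window was 16.1 kb (SNAI1) to 697 kb (CDH2) from its edge.

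Of 17 further EMT transcription factors, 10 had a peak in the window, of which 2 were higher and 3 lower, against 12.5% and 44.4% of all genes with a peak. The median difference of −0.065 kb was close to the −0.094 kb over all genes. FOXC1, a forkhead factor, had coverage of 1.13 and 1.74 kb with DMSO against 2.69 and 1.81 kb with I-BET151. HMGA2, a chromatin architectural protein, had 2.77 and 2.73 kb with DMSO against 3.12 and 3.29 kb with I-BET151. SNAI3, a paralog of SNAI1, had 4.35 and 4.19 kb with DMSO against 3.26 and 2.86 kb with I-BET151, though 0 of the regions in its window lay at its own start. TCF3, which encodes the E-box binding E2A proteins, had 7.59 and 7.48 kb with DMSO against 6.60 and 6.57 kb with I-BET151.

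Across the 14 member regions called in all 4 libraries, 10 had more summit reads in both I-BET151 libraries, 2 had fewer and 2 overlapped. Over all 10309 such regions with reads resolved, 29.8% had more and 31.3% fewer. Their median log2 ratio was 0.25 at the members and 0.00 over all regions, where single regions had an SD of 0.33. By the authors' fold in place of reads the medians were 0.46 and 0.08. Counting only the 8 regions at the members' own starts, 7 had more reads and 1, at EPCAM, overlapped. The matching share over all regions at starts was not worked out, so this count is no result about the members' starts. By the authors' fold the groups were apart at EPCAM, but overlapped at SNAI2 and in the upstream CDH2 region. The remaining member regions with more reads lay at the starts of neighboring genes, TANGO6 and TRDMT1 among them, and those with fewer were both in the SNAI1 window.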

How the data were processed

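H3K27ac ChIP-seq of PPs was analysed from 4 deposited peak lists, 1 per library (2 DMSO, 2 I-BET151). Groups and replicate numbers come from the library titles. As the study's methods state, the authors mapped reads to hg38 with Bowtie2 (2.2.5), and sambamba, Picard and samtools served to remove unmapped, duplicated and mitochondrial reads. MACS2 (2.1.2) ran at its default settings on each library alone, with no pooling. The lists, as deposited, give positions, the fold enrichment at the summit over local background (a ratio), the p-value and q-value as −log10, and a score, which was not used. A fixed threshold leaves out weaker acetylation, and duplicate removal caps the height of a peak.

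The 10 members and the wider gene and marker lists were chosen with earlier results of these data known. All members are named. Regions are named if they lie within 3 kb of an own start, are gained or lost, or are the strongest of a window, and the weak regions of the EPCAM and SNAI1 windows and that at TRDMT1 were added after their values were seen. Some items are not reported here. From each wider list the genes named are up to 2 with the largest differences in each direction among those without overlap. For all genes of GENCODE release 44, the length of peaks inside the window of 50 kb around the gene was summed. Autosomes, X and Y were kept, and positions count from 1. Of all summits 79.8 to 84.2% lay within 3 kb of a protein-coding start, against 10.9 to 11.6% after a shift by 1 Mb.

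MACS2 adds a pseudocount of 1 before taking the fold and derives p-values from the Poisson distribution, so each pair of values fixes the whole number of ChIP reads, the local input level and the scaling. This resolved 99.9 to 100.0% of peaks. Library depths follow from the input's genome-wide level and the default genome size of 2.7e+09 bp. On 5285 to 5591 simulated peaks per library, 99.9 to 100.0% were resolved, 100% of them with the simulated read number. Covered length and merging were tested on simulated intervals. Analyses used Python (3.11.15), numpy (2.4.6), pandas (2.3.3), scipy (1.17.1) and pysam (0.24.0), and figures matplotlib (3.10.9). Alternatives changed the window, the threshold, the list length, the merging, the measure and the libraries. The differences between replicates 1 and 2 were weakly correlated between the groups in coverage (0.11 over 15184 genes) and by 0.012 in calls over 15752 regions, and with only 2 pairs the numbers were not taken as a pairing.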

Additional observations from a re-analysis of the deposited data

How the results depend on the processing

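Of 171 recomputed values of 17 results, 157 stayed within the spread between replicates or, for counts, within 1.5 times the reported count. Some of these 157 could not change, such as the members' differences under the replicate block below and TWIST1, which had 0 peaks. They are therefore no measure of robustness. The cause of the values outside these limits was not tested, except that merging within 500 bp joins the VCAN peaks by construction (0 gained regions). With a window of 100 kb, 4 members had less coverage in both I-BET151 libraries. With the peak lists cut to equal length, 6 members had more and 2 less coverage in both I-BET151 libraries. The windows then held 3 gained, 3 lost and 13 shared regions. The shares over all genes and regions were not recomputed at equal length. The log2 ratio of summit reads was 0.46 with the authors' fold, and 0.29 with reads per base of extension, an alternative chosen after seeing the data. Leaving out 1 library each gave 4 to 6 members with more and 2 to 3 with less coverage, a median difference of −0.029 (without DMSO replicate 1, the reversed value) to 0.291 kb, 3 to 4 gained, 4 to 5 lost and 14 to 15 shared regions, and a log2 ratio of 0.22 to 0.34. Taking the replicate block, that is counting members that moved the same way in both same-numbered pairs, gave 5 with more and 3 with less coverage. It gave a log2 ratio of 0.25, and by construction it left each member's difference, their median of 0.153 kb and the 3 gained, 4 lost and 14 shared regions unchanged. Of the single members, CDH2, VIM, VCAN and ZEB1 were above 0 and CDH1 and SNAI1 below 0 in each of 10 alternatives, with VCAN at 1.58 to 2.04 kb and CDH1 at −1.39 to −0.956 kb. The values of CDH2 (0.183 kb) and ZEB1 (0.679 kb) changed only where a library was left out, so the 10 alternatives are not 10 separate checks. EPCAM (−0.465 to 0.352 kb), ZEB2 (−0.113 to 0.987 kb) and SNAI2 (−0.563 to 0.034 kb) took both signs. Depth limits these lists to peaks past the threshold, and 2 libraries per group give no test.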
